A study of Homo sapiens with 12 samples.

Results

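Interferon-stimulated genes (ISGs) are the antiviral genes that a cell transcribes after it senses interferon or foreign nucleic acid. A list of 37 of them, given by symbol, was followed in U2OS-ERα cells, a human osteosarcoma line that carries the estrogen receptor ERα. Of the 37, 36 were measured among 29094 probe sets tested, each by 1 probe set; DDX58 was matched as RIGI, its current symbol. STAT2, a subunit of the interferon-activated transcription factor ISGF3, was not analysed here.

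Type I interferons bind the receptor IFNAR and activate the kinases JAK1 and TYK2, which switch on the transcription factor ISGF3. ISGF3, which includes IRF9, binds the interferon-stimulated response element (ISRE) in the promoters of the ISGs. Double-stranded RNA, the form in which siRNA is delivered, is a ligand of several of the sensors and effectors in the list, and the estrogen receptor acts through other DNA elements with the help of coactivators such as SRC-1.

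There were 12 arrays in 4 groups of 3 labelled biological replicates. All cells were transfected with 50 nM siRNA with Lipofectamine, either a non-targeting pool (NT) or a pool against SRC-1, the coactivator encoded by NCOA1, and a day later their medium was replaced by one holding 5% charcoal-stripped serum. In it they received ethanol vehicle (NT_V, siSRC-1_V) or estradiol (NT_E, siSRC-1_E) for 3 h; the estradiol dose is not given in the sources used here. Because every group was transfected, the 4 groups compare 1 siRNA pool with another and hormone with vehicle, and not transfection with its absence. Arrays of cells without siRNA, or of cells given interferon, were not analysed here. The receptor is an introduced gene, and the vector and number of clones are not given in the sources used here.

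The targeted gene followed the labels. NCOA1 read 8.81, 8.72 and 8.83 log2 on the NT_V arrays and 6.18, 5.62 and 5.78 on the siSRC-1_V arrays, a fall of 7.60-fold; under estradiol it read 9.15, 9.06 and 9.02 in NT_E and 6.79, 6.88 and 6.92 in siSRC-1_E, a fall of 4.64-fold (limma, adjusted p = 7.3e-07 and 7.92e-06). NCOA1 was higher by 1.00 log2 in siSRC-1_E than in siSRC-1_V (adjusted p = 0.00029), so the groups compared for estradiol under SRC-1 siRNA also differed in the residual SRC-1 transcript. ESR1, the receptor's gene, had group means of 12.16, 12.14, 12.11 and 12.03 in NT_V, NT_E, siSRC-1_V and siSRC-1_E on its brighter probe set. On its other probe set the means were 5.54, 5.52, 5.44 and 5.53. Of 9 osteoblast markers, 8 were measured, with SPARC at a mean of 12.54, COL1A1 at 9.12, RUNX2 at 7.21 and IBSP, the one below the lower quartile in all groups, at 4.93. Of 4 measured leukocyte markers PTPRC stood at 4.19, below that quartile, and CD3E, CD14 and ITGAM at 5.67, 5.75 and 6.05, above it. The mean of the control probe sets, as a deviation from their overall mean, ran from -0.123 to -0.039 in NT_V, -0.0032 to 0.068 in NT_E, -0.159 to -0.024 in siSRC-1_V and 0.094 to 0.178 in siSRC-1_E. It therefore separated hormone from vehicle within each siRNA, and the siRNA pools under estradiol. A fit with it as a covariate cannot tell its part from that of the hormone, or of the siRNA under estradiol. A call lost in that fit, named below as the covariate, thus decides nothing about its part, which was not tested otherwise.

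The ISGs were spread over the whole range of signal in these cells. The lower quartile of each array lay between 5.17 and 5.24 log2 and its median between 6.85 and 6.92. RSAD2, MX1, MX2 and IFIT1, antiviral effectors that are among the genes interferon induces most widely, had all 4 group means below the lower quartile. RSAD2, which encodes viperin, had group means of 4.44, 4.30, 4.42 and 4.34 in NT_V, NT_E, siSRC-1_V and siSRC-1_E, and MX1, a dynamin-like GTPase that restricts viruses, 5.15, 5.07, 5.16 and 5.09. A probe set at this end of the scale cannot be told from a transcript that is not expressed, and a small rise there may be compressed. At the other end, 18 of the 36 lay above the middle of all probe sets tested. They included IFI16, a nuclear DNA sensor (10.80, 10.68, 10.77 and 10.65), IFITM3, which blocks virus entry at the endosome (10.60, 10.58, 10.58 and 10.56), and IFITM2 of the same family (10.22, 10.24, 10.18 and 10.22). Each series of means is that probe set's own, since brightness also depends on the probes.

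**Figure D1:**
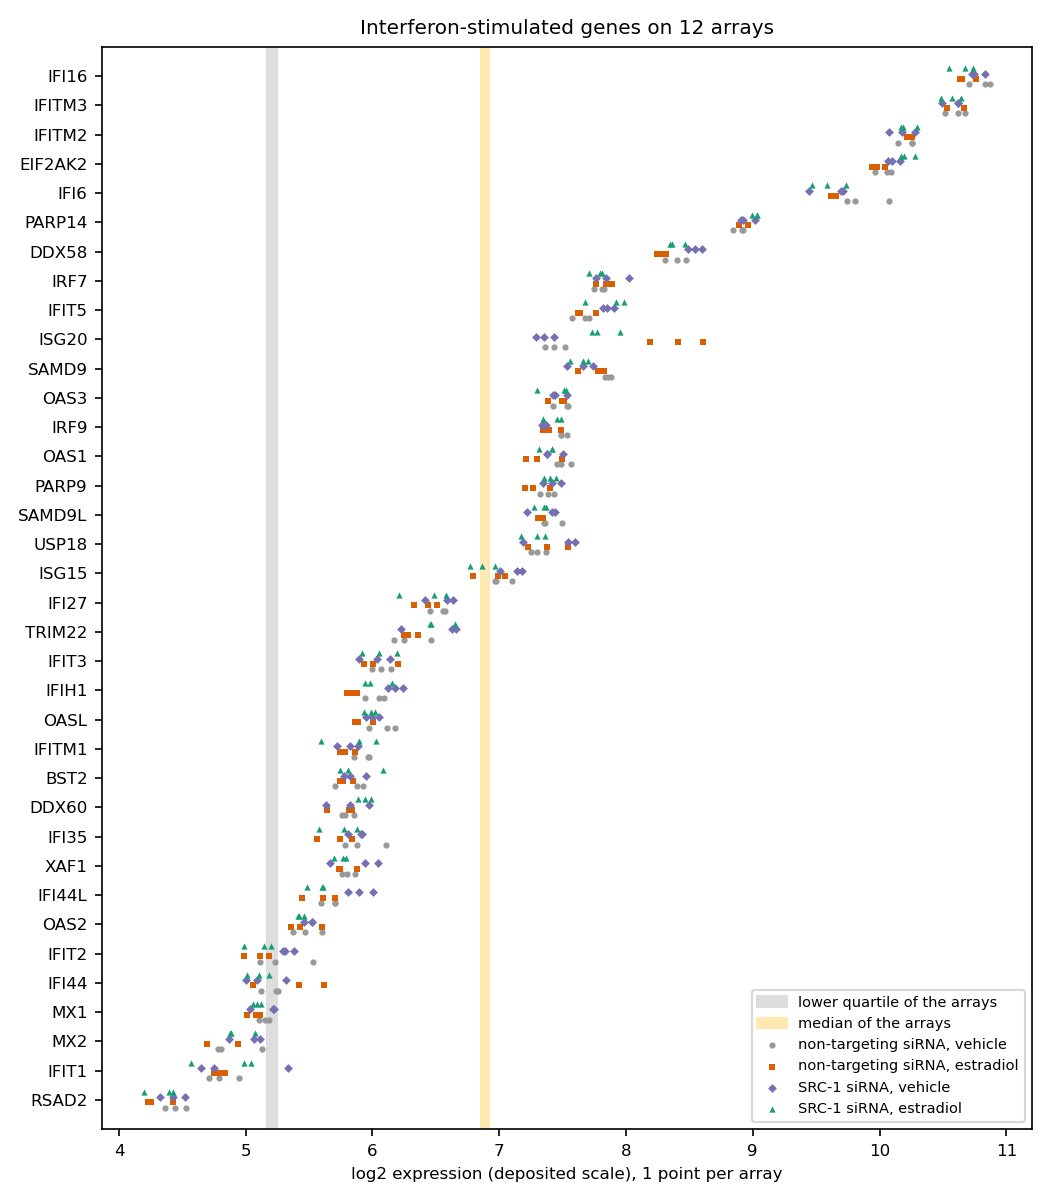
Deposited log2 signal of the 36 measured interferon-stimulated genes on each of the 12 arrays, ordered by mean signal, with 1 point per array coloured by group and shaded bands for the range of the lower quartile and the median over the arrays. ISG20 spreads widely, from 7.29 to 8.61, with its NT_E arrays at the top, and the group means of RSAD2, MX1, MX2 and IFIT1 lie under the lower quartile, while 1 array of IFIT1 reads 5.33.

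Estradiol for 3 h under the non-targeting siRNA raised 1 member of the list, ISG20, and changed no other member beyond the thresholds. ISG20 encodes an exonuclease that degrades single-stranded RNA, and it was also described early on as an estrogen-modulated transcript. It read 7.52, 7.36 and 7.44 log2 on the NT_V arrays and 8.19, 8.41 and 8.61 on the NT_E arrays. All 3 estradiol arrays were above all 3 vehicle arrays. The means were 7.44 ± 0.08 and 8.40 ± 0.21 (SD, n = 3), a difference of 0.96 log2 with a 95% interval of 0.75 to 1.18, or 1.95-fold (limma, adjusted p = 0.000181). Only 56 of the 29094 probe sets, 0.192%, rose by more. As RNA was pooled from all cells of a well, a change in transcript per cell and a change in the number of cells that express it cannot be told apart.

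A gene was called when its unadjusted p was under 0.01 and its Benjamini-Hochberg adjusted p, over all 29094 probe sets, under 0.05, the pair of thresholds the series text names. The 1 call among 36 members is 2.78%, beside 2.73% of all probe sets called in this comparison (1.85% higher and 0.873% lower), so the share of ISGs called was close to that of the array as a whole. With unadjusted p under 0.05 there were 5 members, 13.9% against 13.3% of all probe sets. The estradiol arrays did not overlap the vehicle arrays for 6 members, 16.7% against 21% of all probe sets. The p-values measure the spread among samples labelled as biological replicates.

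The promoter sequences show what ISG20 shares with most of the members that had a promoter entry. Of the 36 measured members, 28 had an entry in the RefSeq promoter table (GRCh38.p14, from 250 bases before to 50 after each start). The ISRE core, searched on both strands as GAAA, any 2 bases, then GAAA, was present in 21 of the 28, or 75%, against 1195 of 27305 genes with such an entry (4.38%). Counting the window with the most cores for each gene, 8 members had 1 core and 13 had several; MX1, one of the 8, had a core in each of 2 separate windows. The 7 members with no match in this window were DDX58, IFI16, IFI35, IRF9, OAS1, SAMD9L and XAF1. A consensus estrogen response element, searched as GGTCA, any 3 bases, then TGACC, was in none of the 28 members' windows and in those of 20 genes (0.0732%). A match is a description of letters and not a bound site, and an absent match says only that the letters are not in the window.

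The stretches below are from some of the members with an ISRE core, read 5′ to 3′ on the gene's own strand, with the core in capitals. Members without a match, such as DDX58 and IRF9, and those without a promoter entry, such as IFIT2 and TRIM22, are not shown. The whole 250 bases before the start are given for ISG20 (chr15:88638766-88639015, plus strand) and for IFI44L (chr1:78620198-78620447, plus strand), the only members called in any comparison. For ISG15 (chr1:1013380-1013409, plus strand), IFI6 (chr1:27672266-27672295, minus strand), IFIH1 (chr2:162318686-162318715, minus strand), DDX60 (chr4:168318786-168318815, minus strand) and SAMD9 (chr7:93118096-93118125, minus strand), the 30 bases around the core nearest the start are given.
ISG20: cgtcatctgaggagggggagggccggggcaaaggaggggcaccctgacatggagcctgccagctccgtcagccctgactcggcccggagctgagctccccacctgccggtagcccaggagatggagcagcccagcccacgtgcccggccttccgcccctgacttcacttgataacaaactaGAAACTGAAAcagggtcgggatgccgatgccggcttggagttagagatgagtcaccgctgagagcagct
IFI44L: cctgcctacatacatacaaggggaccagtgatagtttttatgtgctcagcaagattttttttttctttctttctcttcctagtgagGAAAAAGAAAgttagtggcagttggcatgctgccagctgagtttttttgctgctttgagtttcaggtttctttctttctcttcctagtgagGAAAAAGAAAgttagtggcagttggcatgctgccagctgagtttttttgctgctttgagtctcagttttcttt
ISG15: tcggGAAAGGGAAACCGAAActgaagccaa
IFI6: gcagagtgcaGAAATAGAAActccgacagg
IFIH1: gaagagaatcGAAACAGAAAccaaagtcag
DDX60: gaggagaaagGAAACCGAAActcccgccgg
SAMD9: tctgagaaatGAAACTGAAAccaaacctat
The core of ISG20 is a single one and begins 69 bases before the start. That of IFI44L is one of 2, and the nearer begins 73 bases before the start. In ISG15 a pair of cores overlaps, so that 1 run of capitals covers both. The nearest core began 93 bases before the start in IFI6, 21 in IFIH1, 53 in DDX60 and 136 in SAMD9. ISG20, which rose with estradiol, and IFIH1 and IFI6, which did not pass the test, all carry a core in the window. Every gene shown here does, since only genes with a core are shown.

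**Figure D2:**
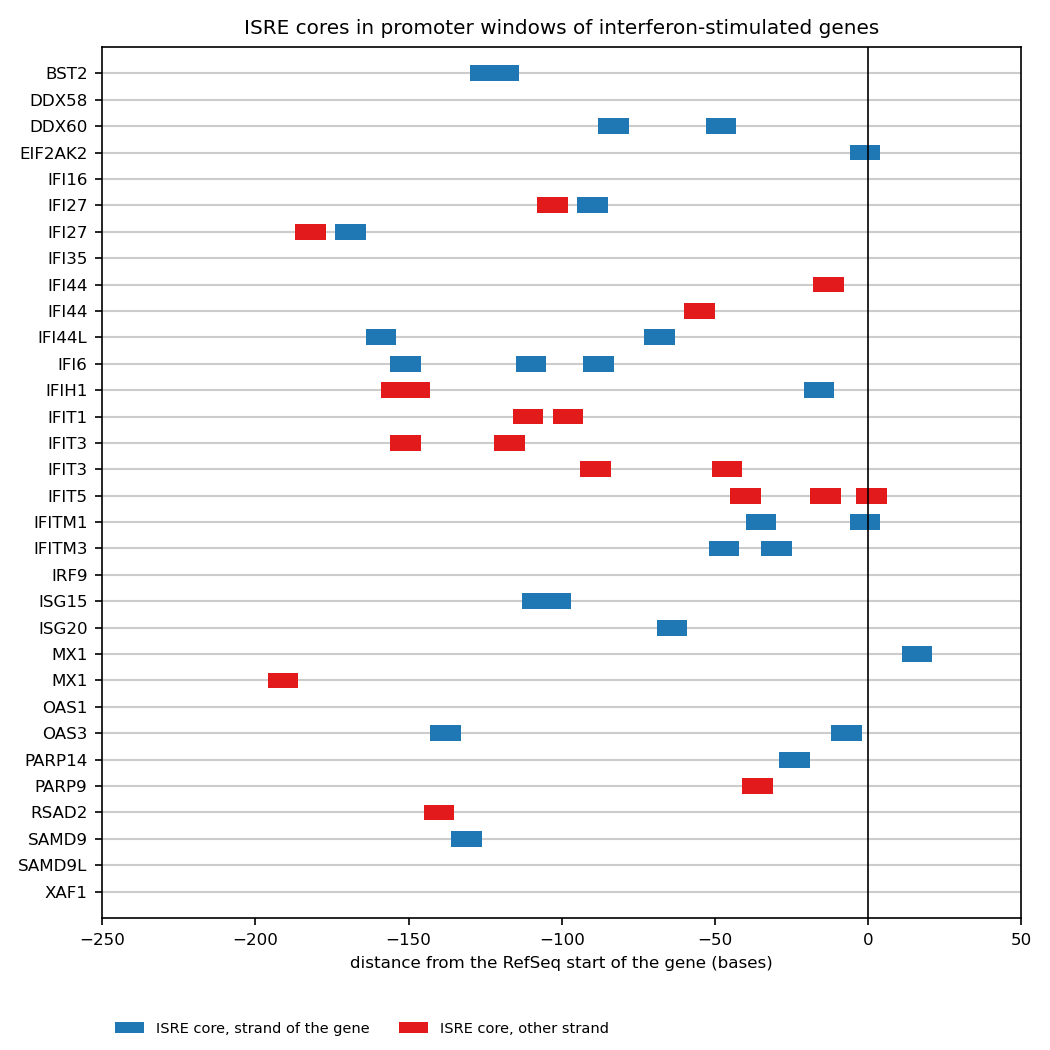
Position of each ISRE core on either strand relative to the annotated start, in bases, with 1 line per promoter window that holds a core, 1 line for each member with none, and colours for the gene's own and the other strand. Of 28 members with a promoter entry, 21 have a core, 13 of them several in 1 window, and the 7 lines without a mark are the members with no match in the window.

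By role, the other 35 members differed between estradiol and vehicle by -0.24 to 0.16 log2, which is at most 1.18-fold. Their 95% intervals together ran from -0.46 to 0.43. The RNA sensors, which start the response to double-stranded RNA, had differences of -0.19 to -0.03, none called. IFIH1, encoding MDA5, read 6.09, 6.05 and 5.94 in NT_V and 5.84, 5.80 and 5.88 in NT_E. The groups did not overlap, but the difference of -0.19 did not pass (limma, adjusted p = 0.196). The 4 genes of the oligoadenylate synthetase family, OAS1, OAS2, OAS3 and OASL, had differences of -0.17 to -0.02, again with none called. The 5 translation blockers, the 6 genes that restrict entry and trafficking, and the 2 ADP-ribosyltransferases had none called either, with medians of -0.02, -0.05 and -0.02.

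No member at either end of that range passed the test. IFI6, a mitochondrial and endoplasmic reticulum protein that delays apoptosis, read 9.74, 9.80 and 10.07 in NT_V and 9.62, 9.62 and 9.65 in NT_E. The vehicle arrays were all higher, and replicate 3 was the highest of them. The difference was -0.24 log2 with an interval of -0.46 to -0.03 (limma, adjusted p = 0.307). IFI35, a leucine zipper protein of the interferon response, read 5.88, 6.10 and 5.78 in NT_V and 5.56, 5.74 and 5.84 in NT_E, and the groups overlapped. IFIT2, which binds viral RNA, read 5.53, 5.23 and 5.11 in NT_V and 5.19, 5.11 and 4.99 in NT_E. Its groups overlapped, and its signal was near the lower quartile. On the other side, IFI44, a cytoplasmic protein of the response, read 5.24, 5.25 and 5.12 in NT_V and 5.06, 5.61 and 5.42 in NT_E. USP18, the protease that removes ISG15 from its targets and damps the receptor, read 7.25, 7.37 and 7.30 in NT_V and 7.54, 7.37 and 7.23 in NT_E. Both of these overlapped. Of the 36 members 28 had a negative difference and 8 a positive one, with a median of -0.06, where all probe sets had a median of -0.01; single probe sets share arrays and are not independent, so no test was made of that count.

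Under SRC-1 siRNA, estradiol raised ISG20 again and lowered IFI44L, and no other member of the list was called. ISG20 read 7.29, 7.36 and 7.43 log2 on the siSRC-1_V arrays and 7.73, 7.95 and 7.77 on the siSRC-1_E arrays. All 3 estradiol arrays were above all 3 vehicle arrays. The means were 7.36 ± 0.07 and 7.82 ± 0.12 (SD, n = 3), a difference of 0.46 (95% interval 0.24 to 0.67), or 1.37-fold (limma, adjusted p = 0.017), and 607 probe sets (2.09%) rose by more. The call was lost without siSRC-1_V replicate 2 (adjusted p = 0.0615), without siSRC-1_E replicate 2 (0.39 log2, adjusted p = 0.056) and with the control probe mean as a covariate (0.34 log2, adjusted p = 0.69).

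IFI44L, a cytoplasmic ISG that is used as a marker of interferon exposure in blood, read 6.01, 5.89 and 5.80 in siSRC-1_V and 5.61, 5.60 and 5.48 in siSRC-1_E. The vehicle arrays were all higher. The means were 5.90 ± 0.10 and 5.56 ± 0.07 (SD, n = 3), so IFI44L fell by 0.34 log2, with a 95% interval of -0.50 to -0.17, or 1.26-fold (limma, adjusted p = 0.02). In the NT arrays it read 5.70, 5.71 and 5.59 with vehicle and 5.70, 5.45 and 5.61 with estradiol, which overlapped (-0.08, adjusted p = 0.706). The siSRC-1_V arrays were thus the highest 3 of the 12 for this gene. The call was lost in a fit of the compared arrays only (adjusted p = 0.0507), after a further quantile normalization (-0.30, adjusted p = 0.052), without siSRC-1_V replicate 2 (adjusted p = 0.0647), without siSRC-1_E replicate 3 (-0.30, adjusted p = 0.075) and with the covariate (-0.31, adjusted p = 0.628). Of the 8 measured osteoblast markers, 1 was called lower as well in this comparison. So was CLEC4C, a plasmacytoid dendritic cell marker at a mean of only 5.09 (-0.34, limma, adjusted p = 0.0457). The mean of the 2 measured markers of the dendritic cell ran from 4.69 to 4.98 in siSRC-1_V and 4.52 to 4.65 in siSRC-1_E, below the lower quartile of the arrays in both. The part of either marker list in the IFI44L result was not tested.

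The 2 calls, 1 in each direction, are 5.56% of the members, against 6.88% of all probe sets called in this comparison (4.49% higher and 2.39% lower). Unadjusted p was under 0.05 for 6 members, 16.7% against 23.2%. The arrays did not overlap for 7 members, 19.4% against 25.8%. The members therefore held no larger share of calls than the array as a whole. Members that were not called ranged from -0.24 to 0.13 log2.

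At those ends, ISG15, the ubiquitin-like modifier of the antiviral response, read 7.01, 7.14 and 7.18 in siSRC-1_V and 6.77, 6.96 and 6.86 in siSRC-1_E. The vehicle arrays were all higher, by a mean of 0.24, but the adjusted p of 0.0859 (limma) missed the threshold. It passed with the replicate number as a block (adjusted p = 0.0275) and without the lowest 40% of probe sets (adjusted p = 0.0487). IFIT2 read 5.38, 5.29 and 5.31 in siSRC-1_V and 5.14, 4.98 and 5.20 in siSRC-1_E, again without overlap but at the bottom of the signal range (-0.22, adjusted p = 0.207). In the upward direction DDX60, a helicase reported to promote RIG-I signalling, read 5.97, 5.63 and 5.82 in siSRC-1_V and 5.94, 5.88 and 5.99 in siSRC-1_E, and the groups overlapped. EIF2AK2, encoding the kinase PKR that halts translation when it binds double-stranded RNA, read 10.16, 10.10 and 10.07 in siSRC-1_V and 10.17, 10.20 and 10.28 in siSRC-1_E. Its estradiol arrays were the higher ones, by 0.10 on average, which did not pass. DDX58, the sensor RIG-I, read 8.60, 8.49 and 8.54 in siSRC-1_V and 8.47, 8.35 and 8.36 in siSRC-1_E (-0.15, adjusted p = 0.13), without overlap. Of the 36 members 25 had a negative difference, with a median of -0.03 beside -0.02 for all probe sets.

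**Figure D3:**
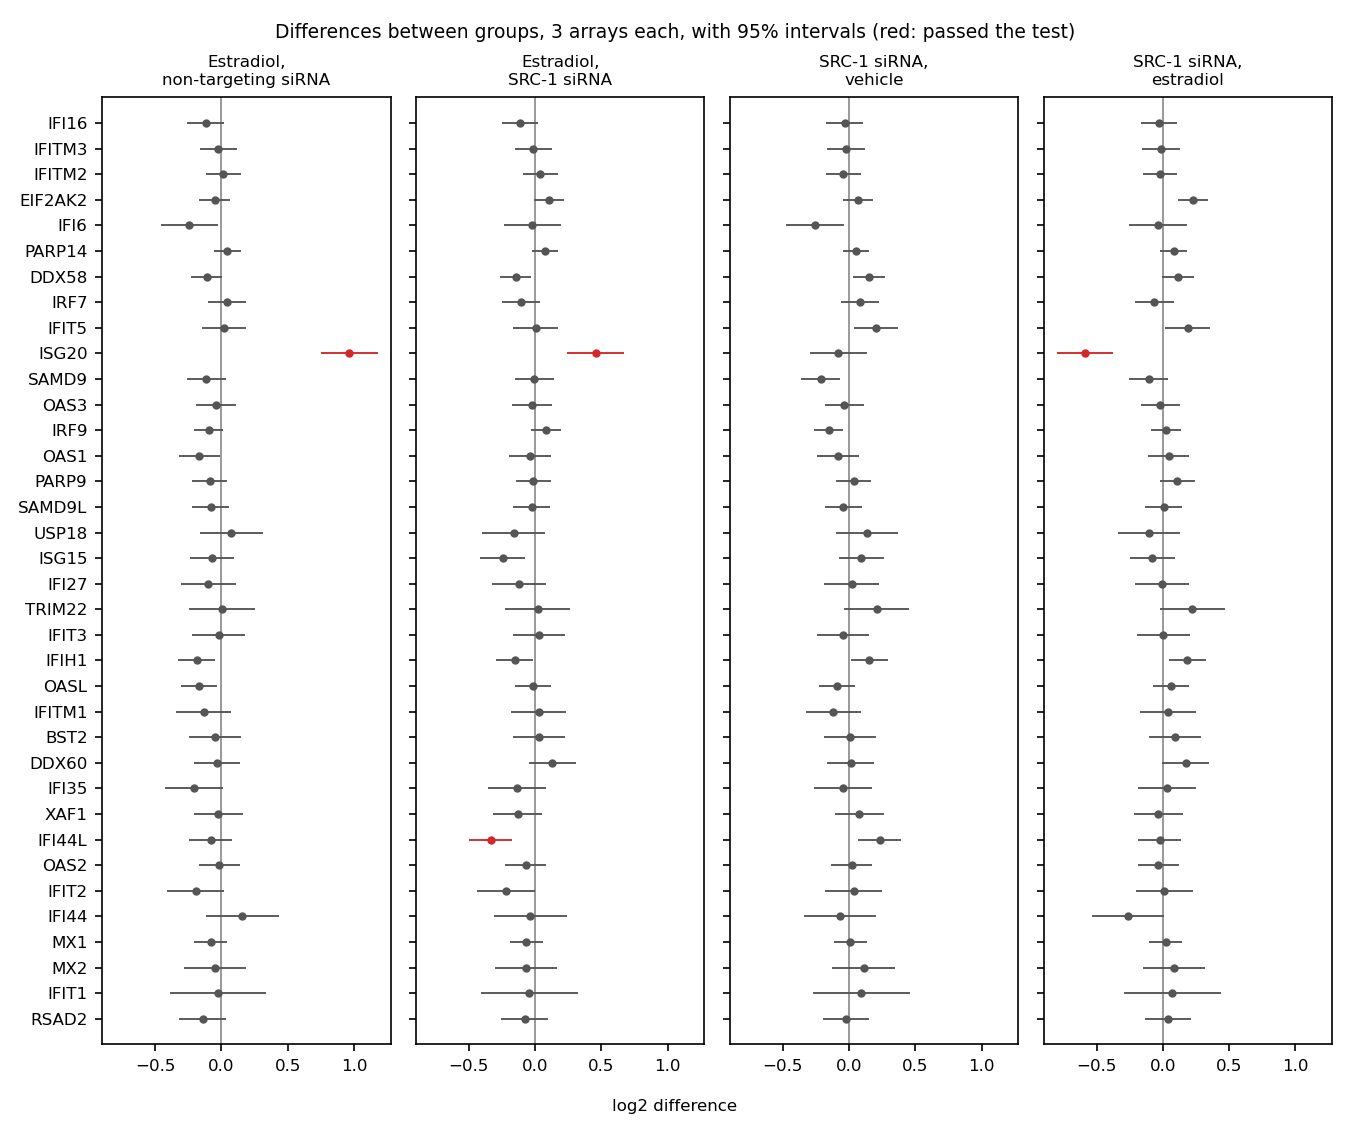
Difference of each member in the comparisons between 2 groups, in log2, 1 panel a comparison, with its 95% interval from the limma fit and red for members that passed both thresholds. The red points are ISG20 (0.96 and 0.46 with estradiol, -0.59 for SRC-1 siRNA under estradiol) and IFI44L (-0.34 with estradiol under SRC-1 siRNA).

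Under vehicle, replacing the non-targeting pool by the SRC-1 pool changed no member of the list beyond the thresholds. None of the 36 was called, against 1.21% of all probe sets (0.265% higher and 0.945% lower), and the smallest adjusted p among them was 0.188 (limma). With unadjusted p under 0.05 there were 7, or 19.4% against 12.7% of all probe sets. The groups did not overlap for 7 members, 19.4% against 18.4%. Differences ran from -0.26 to 0.23 log2 with a median of 0.01, beside 0.00 for all probe sets, and the 95% intervals together reached from -0.47 to 0.46. A difference beyond that range lies outside the interval of every member.

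On the high side, IFI44L read 5.70, 5.71 and 5.59 in NT_V and 6.01, 5.89 and 5.80 in siSRC-1_V. The groups did not overlap, and the difference of 0.23 (95% interval 0.07 to 0.40) missed the threshold (limma, adjusted p = 0.192). TRIM22, a ubiquitin ligase that restricts several viruses, read 6.46, 6.17 and 6.25 in NT_V and 6.65, 6.22 and 6.62 in siSRC-1_V, which overlapped. IFIT5, which binds RNA with a 5′ phosphate, read 7.68, 7.58 and 7.71 in NT_V and 7.85, 7.90 and 7.82 in siSRC-1_V. Its siSRC-1_V arrays were all higher (0.20, adjusted p = 0.287). Among the sensors, DDX58 read 8.47, 8.31 and 8.40 in NT_V, and its difference of 0.15 had an adjusted p of 0.264. IFIH1 read 6.12, 6.18 and 6.24 in siSRC-1_V, above each of its NT_V arrays, with a difference of 0.15 (adjusted p = 0.337).

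On the low side, IFI6 read 9.71, 9.69 and 9.44 in siSRC-1_V, under each of its NT_V arrays (-0.26, 95% interval -0.47 to -0.04, adjusted p = 0.298). SAMD9, an antiviral and growth-limiting protein, read 7.83, 7.86 and 7.88 in NT_V and 7.74, 7.54 and 7.66 in siSRC-1_V. The groups did not overlap and the difference was -0.21 (95% interval -0.36 to -0.07, adjusted p = 0.188). IRF9, the DNA-binding subunit of ISGF3, read 7.53, 7.49 and 7.49 in NT_V and 7.37, 7.33 and 7.34 in siSRC-1_V. Its 3 SRC-1 arrays were lower by 0.15 with little spread, but the adjusted p was 0.215 (limma). IRF7, the factor that amplifies interferon production, had means of 7.79 and 7.88.

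Under estradiol, SRC-1 siRNA lowered 1 member of the list, ISG20, and no other member was called. ISG20 read 8.19, 8.41 and 8.61 in NT_E and 7.73, 7.95 and 7.77 in siSRC-1_E, so every array with SRC-1 siRNA was below every one with the non-targeting pool. It fell by 0.59 log2, with a 95% interval of -0.80 to -0.37, or 1.50-fold (limma, adjusted p = 0.0118). Under vehicle the same comparison gave -0.08 (95% interval -0.29 to 0.13, adjusted p = 0.8), with overlapping arrays. The call was lost with the compared arrays only (adjusted p = 0.0866), with the covariate (-0.64, adjusted p = 0.101), without NT_E replicate 2 (adjusted p = 0.0545), without siSRC-1_E replicate 1 (adjusted p = 0.0549) and without siSRC-1_E replicate 3 (adjusted p = 0.0566). The difference stayed between -0.54 and -0.64 in these fits. Of the 8 osteoblast markers ALPL and SPP1 fell with SRC-1 siRNA too, by 0.23 and 0.71 log2 under vehicle and 0.43 and 0.87 under estradiol. The other 6 were not called, the median of the list was -0.08 under vehicle and 0.0049 under estradiol, and its part in the ISG20 result was not tested.

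The 1 call is 2.78% of the members, against 1.8% of all probe sets (0.732% higher and 1.07% lower). Unadjusted p was under 0.05 for 4 members, 11.1% against 15.8%, and the groups did not overlap for 7, 19.4% against 22.3%. EIF2AK2 came closest to a rise. It read 10.05, 9.94 and 9.98 in NT_E and 10.17, 10.20 and 10.28 in siSRC-1_E, without overlap, a difference of 0.23 with a 95% interval of 0.11 to 0.34 (limma, adjusted p = 0.056). It passed without the lowest 40% of probe sets (adjusted p = 0.02), after a further quantile normalization (adjusted p = 0.039), with trended and robust variance (adjusted p = 0.0073) and with array weights (adjusted p = 0.0437).

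TRIM22 read 6.36, 6.28 and 6.25 in NT_E and 6.65, 6.46 and 6.45 in siSRC-1_E, without overlap (0.22, adjusted p = 0.366). IFIT5 read 7.64, 7.62 and 7.76 in NT_E and 7.92, 7.67 and 7.99 in siSRC-1_E, which overlapped (0.19, adjusted p = 0.262). IFIH1 read 6.15, 5.98 and 5.94 in siSRC-1_E, above each of its NT_E arrays (0.18, adjusted p = 0.184). At the low end, IFI44 read 5.19, 5.01 and 5.10 in siSRC-1_E, a difference of -0.26 that overlapped with the widely spread NT_E arrays. SAMD9 read 7.83, 7.63 and 7.78 in NT_E and 7.66, 7.56 and 7.70 in siSRC-1_E, which overlapped (-0.11). The median over the members was 0.02, beside -0.01 for all probe sets. The pair of siRNA comparisons and the pair of estradiol comparisons share arrays with each other, so their values stand side by side and are not counted as separate support.

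**Figure D4:**
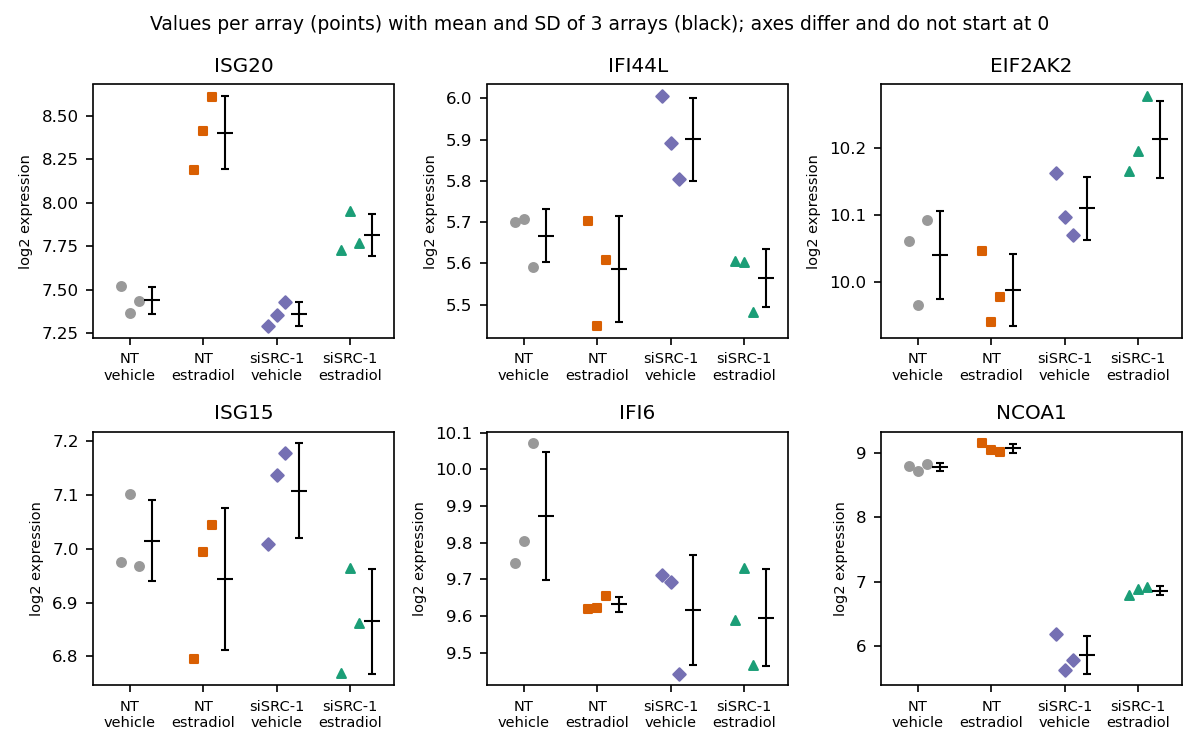
Log2 signal on each of the 3 arrays of NT_V, NT_E, siSRC-1_V and siSRC-1_E for ISG20, IFI44L, EIF2AK2, ISG15, IFI6 and, as the targeted gene, NCOA1, with the group mean and SD in black beside the points and an axis of its own for each gene. ISG20 steps from 7.44 to 8.40 with estradiol under the non-targeting siRNA and from 7.36 to 7.82 under SRC-1 siRNA; IFI44L has its highest mean, 5.90, in siSRC-1_V.

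Whether the estradiol effect itself depended on the siRNA was tested as the difference between the effects (siSRC-1 minus NT). No member was called, and no probe set was called either (0% of 29094; limma). Unadjusted p was under 0.05 for 3 members, 8.33%, and for 2102 probe sets, 7.22%. The estradiol effect on ISG20 was smaller under SRC-1 siRNA by 0.51 ± 0.14 log2 (SE; the difference was -0.51 with a 95% interval of -0.81 to -0.20, unadjusted p = 0.00358, adjusted p = 0.494). Over the alternative fits the adjusted p ran from 0.291 to 0.758 and the difference from -0.61 to -0.40. So ISG20 was called in both hormone comparisons, and the smaller rise under SRC-1 siRNA did not pass the correction over all probe sets.

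For IFI44L the difference between the effects was -0.26 (95% interval -0.48 to -0.03, unadjusted p = 0.0324, adjusted p = 0.671). Its fall in the SRC-1 arrays is therefore not shown to differ from its overlap in the NT arrays. USP18 read 7.19, 7.54 and 7.60 in siSRC-1_V and 7.36, 7.17 and 7.30 in siSRC-1_E, so its difference between the effects of -0.24 came from arrays that overlapped. On the positive side stood IFI6 (0.22), which read 9.59, 9.73 and 9.47 in siSRC-1_E, IRF9 (0.18) and DDX60 (0.16). IRF9 read 7.34, 7.48 and 7.39 in NT_E and 7.34, 7.46 and 7.49 in siSRC-1_E, with an adjusted p of 0.669. DDX60 read 5.85, 5.78 and 5.76 in NT_V and 5.64, 5.84 and 5.81 in NT_E. The median half-width of a member's 95% interval was 0.165 log2 in the comparisons of 2 groups and 0.233 for the difference between effects.

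The rest of the interferon pathway was read from lists of 93 measured genes outside the 36. Of these, 2 were called for estradiol with non-targeting siRNA, where 2.73% of all probe sets were. With SRC-1 siRNA estradiol gave 4, where 6.88% of all probe sets were called. SRC-1 siRNA gave 1 under vehicle and 1 under estradiol, beside 1.21% and 1.8% of all probe sets. The lists therefore held no larger share of calls than the array as a whole. Of 16 interferon ligands, 13 were under the lower quartile of the arrays in all 4 groups, IFNB1 among them at a mean of 3.89. IFNL1 (listed as IL29), a type III interferon, was the only ligand called. It read 6.65, 6.68 and 6.76 in siSRC-1_V and 6.50, 6.36 and 6.37 in siSRC-1_E, without overlap, and fell by 0.29 log2 (limma, adjusted p = 0.021). The call was lost in 7 alternatives, among them those without siSRC-1_V replicate 2 (adjusted p = 0.0603) or 3 (0.0814) and without siSRC-1_E replicate 2 (0.0637) or 3 (0.0724). It belongs to a group of related genes, which the probes may not fully tell apart, and IFNL3, the ligand with the highest mean signal, ranged from -0.24 to -0.04 over the 5 comparisons. It was not called, but passed for estradiol under SRC-1 siRNA without the lowest 40% of probe sets and with trended variance. None of the 10 receptor and JAK-STAT genes was called in the fit of all arrays. IFNGR2, a subunit of the interferon gamma receptor, came nearest, at -0.19 for estradiol under SRC-1 siRNA (limma, adjusted p = 0.0601) and -0.18 under the non-targeting siRNA (adjusted p = 0.138). It passed in the former comparison with the replicate block, without the lowest 40%, after quantile normalization, with trended variance and without NT_V replicate 3, and in the latter without NT_V replicate 3. STAT3 passed for estradiol under SRC-1 siRNA, and the receptor subunit IL10RB for SRC-1 siRNA under vehicle, with trended variance alone. STAT3 ranged from -0.11 to 0.01 and JAK1, the kinase on the receptor, from -0.01 to 0.01.

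Of 18 sensors and adaptors, 1 rose with estradiol, in both siRNA settings. STING1 (listed as TMEM173), the adaptor that relays cytosolic DNA sensing, read 8.14, 8.17 and 8.07 in NT_V, 8.41, 8.47 and 8.50 in NT_E, 8.36, 8.19 and 8.23 in siSRC-1_V, and 8.71, 8.54 and 8.58 in siSRC-1_E. Estradiol arrays were higher than vehicle arrays within each siRNA. The rise was 0.33 log2 (limma, adjusted p = 0.0104) in NT and 0.35 (adjusted p = 0.0053) in SRC-1 cells. The first was lost without NT_V replicate 3 (adjusted p = 0.0546) or NT_E replicate 3 (adjusted p = 0.052), and with the control probe covariate both were lost (0.26, adjusted p = 0.224, and 0.19, adjusted p = 0.701). The adaptor TRAF6 and the PKR activator PRKRA, which have the highest mean signals of this list, ranged from -0.03 to 0.17 and -0.09 to 0.03. TLR9, an endosomal DNA sensor, was not called (-0.32 for estradiol under SRC-1 siRNA, adjusted p = 0.068), but passed there without the lowest 40%, with trended variance, with array weights, and without siSRC-1_V replicate 1 or siSRC-1_E replicate 2. Among 11 interferon regulatory factors and feedback genes none was called, although IRF5 passed for estradiol under the non-targeting siRNA without NT_E replicate 2 and IRF2 for SRC-1 siRNA under estradiol without the lowest 40%. IRF2, a repressor of ISGs, ranged from -0.07 to 0.13 and the STAT inhibitor PIAS1 from 0.00 to 0.09.

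Of 38 further ISGs, 3 were called in some comparison. SP100, a scaffold of nuclear bodies that restrict DNA viruses, read 8.58, 8.48 and 8.60 in NT_V, 8.93, 8.96 and 8.97 in NT_E, 8.68, 8.54 and 8.64 in siSRC-1_V, and 8.99, 8.93 and 9.03 in siSRC-1_E. The estradiol arrays were all above the vehicle arrays, by 0.40 in NT (limma, adjusted p = 0.00098) and 0.36 with SRC-1 siRNA (adjusted p = 0.0014), the latter lost with the covariate (0.13, adjusted p = 0.679). TRIM25, the ubiquitin ligase that activates RIG-I, rose with SRC-1 siRNA. It read 10.56, 10.46 and 10.55 in NT_V, 10.50, 10.57 and 10.53 in NT_E, 10.78, 10.72 and 10.76 in siSRC-1_V, and 10.75, 10.73 and 10.77 in siSRC-1_E. Every SRC-1 array was above every NT array, by 0.23 under vehicle (adjusted p = 0.0257) and 0.22 under estradiol (adjusted p = 0.0262). Leaving out any of the 6 compared arrays took the adjusted p above the threshold, to between 0.056 and 0.0971 under vehicle and 0.0547 and 0.0992 under estradiol, as did the compared arrays only (0.165 and 0.1). Both calls were also lost with a fold of at least 1.2. The call under vehicle was lost with median centring, and that under estradiol with the covariate (limma, adjusted p = 0.304). CXCL10, an interferon-induced chemokine, read 4.18, 4.26 and 4.24 in siSRC-1_V and 3.92, 4.02 and 3.99 in siSRC-1_E. It was called lower with estradiol there (-0.25, adjusted p = 0.0469), but its signal was under the lower quartile in all groups and the call was lost in 16 of 21 alternatives. In the same comparison CMPK2 and SP110 passed without the lowest 40% of probe sets, and CMPK2 without siSRC-1_E replicate 2. B2M and LY6E, with the highest mean signals of the further ISGs, ranged from -0.07 to 0.09 and -0.11 to 0.12.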

How the data were processed

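RNA of 12 cultures was hybridized to Affymetrix Human Gene 1.0 ST arrays. The authors deposited log2 signals per probe set, made with affy and tested with limma per the submitters' processing notes; versions and the normalization method are not given in the sources used here. No further normalization was applied. From the 33297 probe sets, 4203 were left out as controls because their identifiers precede 7896740, the first that the platform annotation pairs with a gene.

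Groups and replicate numbers came from the labels. All 29094 other probe sets were fitted with 1 mean per group on all 12 arrays in limma 3.58.1 (R 4.3.3). A call needed an adjusted p (Benjamini-Hochberg) under 0.05 as well as an unadjusted p under 0.01. Fold changes are powers of 2 of the log2 differences. The number of arrays limits the precision. Arrays of the same group correlated from 0.9967 to 0.9979. Arrays of different groups were compared after each group's mean was subtracted. What remained correlated weakly for same-numbered arrays, from -0.03 to 0.21, and for different numbers from -0.26 to 0.11. Even so, 9 of 12 arrays were closest to their own number, so a shared replicate effect is not excluded. As the labels name no pairs, the main fit used no block, and a fit with one was run as an alternative.

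The members and the pathway lists were chosen with earlier results of these data known. Each gene was read from a probe set with exactly 1 symbol, the brightest where there were several. Values on every array are given for members called anywhere and for the 3 highest and 3 lowest differences in each comparison; further members, and list genes that passed only in an alternative, were named after their values were seen. In the lists, called genes are named, and otherwise the 2 with the highest mean. Alternatives were a replicate block, the compared arrays only, no low probe sets, further normalization or centring, another variance model, array weights, a control probe covariate, all probe sets, a fold minimum and each array left out.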

Additional observations from a re-analysis of the deposited data

How the results depend on the processing

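In the members, the counts called for estradiol with non-targeting siRNA (1, ISG20), for SRC-1 siRNA under vehicle (0) and for the difference between the effects (0) were the same in every alternative run. For estradiol with SRC-1 siRNA (main count 2) the count was 1 with the compared arrays only and 0 with the control probe covariate, and 0 to 3 with single arrays left out; the further quantile normalization called DDX58 (adjusted p = 0.0463) in place of IFI44L, and XAF1 (adjusted p = 0.036) was added without siSRC-1_V replicate 1. For SRC-1 siRNA under estradiol (main count 1) it was 0 with the compared arrays only and with the covariate, 2 without the lowest 40% of probe sets, with quantile normalization, with trended and robust variance and with array weights, and 0 to 1 with single arrays left out. In the pathway lists, the count for estradiol with non-targeting siRNA (2) was 1 with the covariate and 1 to 3 with single arrays left out. With SRC-1 siRNA (4) it was 2 with the compared arrays only, 8 without the lowest 40%, 7 with trended variance, 0 with the covariate and 2 to 5 with single arrays left out. For SRC-1 siRNA under vehicle (1) it was 0 with the compared arrays only, with median centring and with a fold of at least 1.2, 2 with trended variance, and 0 to 1 with single arrays left out. Under estradiol (1) it was 0 with the compared arrays only, with the covariate and with the fold minimum, 2 without the lowest 40%, and 0 to 1 with single arrays left out. The cause of these changes was not tested. Calls over all probe sets are given below for the block only. The counts in the other alternatives therefore have no such share beside them, and they are not read as a result about the members or lists. No direction of a called gene reversed; XAF1, which was not called on all arrays, was 0.23 with the covariate in place of -0.13.

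After each group's mean was subtracted, 6 of 18 same-numbered pairs of arrays correlated above 0.1, and 9 of 12 arrays were closest to their own number. With the replicate number as a block the members called were 1, 3, 0, 1 and 0 in the order estradiol (NT), estradiol (SRC-1), SRC-1 siRNA (vehicle), SRC-1 siRNA (estradiol) and their difference, and ISG15 was the added one. Over all probe sets the block gave 807, 2308, 327 and 520 calls beside 793, 2001, 352 and 524. The mean of several probe sets per gene was not run, since every member had 1. The filter on the lowest 40% left 20 members.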
